A study of Mus musculus with 72 samples.

Results

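Interferon-stimulated genes are the genes that cells switch on after interferon, a cytokine released during infection, binds its receptors. The set described here holds 40 mouse genes of this kind, listed by symbol, of 45407 genes with a matched transcript. Each gene was read from its transcript with the highest total count over the 72 deposited files. For Psmb9, Zbp1 and Cxcl10 that transcript is annotated with a retained intron, and for Rsad2 as a target of nonsense-mediated decay. Low Isg15 and Iigp1 in the knockout at day 0 was already known when the set was put together. The day 0 values of these genes, and the number of members that moved at day 0, are therefore given as a description.

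The samples were mouse embryonic stem cells that carry or lack intact Nup133, the gene of a nucleoporin of the Y-complex of the nuclear pore. The controls were 2 replicates of the HM1 line (Nup133+/+, XY) and 1 sample of line 1A4 (Nup133+/+, Sox1gfp/+, XY). The knockouts were lines 14 and 19 (Nup133-/-, XY), CRISPR/Cas9 derivatives of HM1, and line 319 (Nup133merm/merm, Sox1gfp/+, XX with extra chromosomes 8 and 12). Line 1A4 and line 319 came from blastocysts, so each origin holds both genotypes, and each knockout line stands for itself as 1 line. All cells were grown in serum with leukemia inhibitory factor on inactivated DR4 mouse embryonic fibroblasts, which were removed by brief plating before collection at day 0. Cells then went into serum-free N2B27 medium until day 2, and into 1 µM retinoic acid until day 3. Each of the 6 combinations of genotype and day had 3 samples. The transcripts chosen for the genes held 16.5 M to 54.4 M counts per sample, called gene counts below. All transcripts together held 2.68 to 2.97 times as many. The line 19 sample of day 2 stood apart, with the fewest counts (16.5 M), the fewest genes detected (20638) and the largest share of counts in unmatched transcripts (2.46%), so counts of calls that move without it are given. Since every replicate is a line or a repeat of 1 line, p-values measure only the spread between these samples.

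Nup133 itself lay between 179.5 and 323.4 CPM (counts scaled to a library total of 1000000) in the 9 control samples and between 14.3 and 37.1 CPM in the 9 knockout samples. The pluripotency markers Pou5f1, Nanog, Zfp42, Esrrb and Sox2 were all detected at day 0, with a summed level of 3213 to 3463 CPM in the controls and 3680 to 4502 CPM in the knockouts. Line 319 stood apart from lines 14 and 19 in many interferon-stimulated genes, mainly at day 2, and its values are given separately wherever a result rests on them.

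In the type I interferon pathway, interferon alpha and beta bind a receptor whose signal reaches a promoter sequence called the interferon-stimulated response element (ISRE). Type II interferon acts through another sequence, the gamma-activated site (GAS). The genes switched on encode sensors of viral nucleic acid, enzymes that degrade or block viral RNA, GTPases that attack the compartments of intracellular pathogens, and the machinery for presenting peptides on MHC class I. Pluripotent stem cells are known for a weak interferon response, with low output of interferon and low induction of these genes, while fibroblasts respond strongly.

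Promoter windows from RefSeq (GRCm38.p6), running from 250 bases before to 50 bases after a gene's start, were found for 33 of the 40 members. No window was found for Iigp1, Usp18, Ifi27, Dhx58, Zbp1, Parp9 and Parp14. The ISRE core (GAAA, any 2 bases, GAAA), searched on both strands, was present in 17 of the 33 members (51.5%), against 1079 of 27025 genes with a window (3.99%). The GAS core (TTC, any 3 bases, GAA), which reads the same on both strands, was present in 11 of the 33 members (33.3%), against 2582 of those genes (9.55%). The 8 windows below are those of Gbp2 and of members that passed the test between genotypes, given below, on some day. Gbp2 did not pass it with all lines, and the window of Ifih1, which did, is not shown. Windows are written along the gene's strand with ISRE and GAS cores in capitals.

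Isg15: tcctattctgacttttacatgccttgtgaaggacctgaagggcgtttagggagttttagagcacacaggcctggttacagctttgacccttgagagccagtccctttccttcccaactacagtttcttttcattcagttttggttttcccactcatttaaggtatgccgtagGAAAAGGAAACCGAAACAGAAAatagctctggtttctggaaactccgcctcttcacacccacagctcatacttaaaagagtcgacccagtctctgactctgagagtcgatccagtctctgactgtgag
Gbp2: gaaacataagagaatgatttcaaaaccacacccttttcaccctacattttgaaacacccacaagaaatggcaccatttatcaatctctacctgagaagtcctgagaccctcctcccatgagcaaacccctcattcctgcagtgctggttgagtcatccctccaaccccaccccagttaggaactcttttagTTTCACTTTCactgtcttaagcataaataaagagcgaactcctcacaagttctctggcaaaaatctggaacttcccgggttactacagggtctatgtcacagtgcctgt
Igtp: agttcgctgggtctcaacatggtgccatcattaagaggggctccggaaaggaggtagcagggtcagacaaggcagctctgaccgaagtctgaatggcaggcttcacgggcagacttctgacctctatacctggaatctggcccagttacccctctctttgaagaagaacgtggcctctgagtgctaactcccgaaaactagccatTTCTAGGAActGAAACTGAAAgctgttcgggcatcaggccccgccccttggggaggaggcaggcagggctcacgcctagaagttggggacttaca
Irgm2: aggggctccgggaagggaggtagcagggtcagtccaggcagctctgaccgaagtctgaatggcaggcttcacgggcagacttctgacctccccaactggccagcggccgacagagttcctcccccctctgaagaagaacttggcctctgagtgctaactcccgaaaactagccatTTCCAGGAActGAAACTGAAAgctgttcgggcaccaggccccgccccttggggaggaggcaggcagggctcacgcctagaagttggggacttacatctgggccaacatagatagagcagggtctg
Stat2: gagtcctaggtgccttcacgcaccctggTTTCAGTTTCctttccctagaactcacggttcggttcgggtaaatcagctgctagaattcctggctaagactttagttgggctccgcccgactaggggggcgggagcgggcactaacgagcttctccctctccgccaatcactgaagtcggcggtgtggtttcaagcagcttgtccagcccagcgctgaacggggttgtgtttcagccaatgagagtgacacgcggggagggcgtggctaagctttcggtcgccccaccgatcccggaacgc
Bst2: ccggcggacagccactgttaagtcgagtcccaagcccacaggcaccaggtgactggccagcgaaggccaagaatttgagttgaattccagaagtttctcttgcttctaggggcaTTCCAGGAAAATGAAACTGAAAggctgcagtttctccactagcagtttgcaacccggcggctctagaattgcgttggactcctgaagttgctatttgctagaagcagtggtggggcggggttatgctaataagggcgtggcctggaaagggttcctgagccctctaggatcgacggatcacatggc
Cxcl10: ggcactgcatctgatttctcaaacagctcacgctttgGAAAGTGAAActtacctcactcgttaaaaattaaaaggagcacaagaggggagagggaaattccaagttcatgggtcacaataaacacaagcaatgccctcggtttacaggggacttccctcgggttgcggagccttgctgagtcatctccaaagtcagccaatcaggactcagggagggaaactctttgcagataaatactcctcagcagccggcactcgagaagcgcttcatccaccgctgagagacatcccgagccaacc
Isg20: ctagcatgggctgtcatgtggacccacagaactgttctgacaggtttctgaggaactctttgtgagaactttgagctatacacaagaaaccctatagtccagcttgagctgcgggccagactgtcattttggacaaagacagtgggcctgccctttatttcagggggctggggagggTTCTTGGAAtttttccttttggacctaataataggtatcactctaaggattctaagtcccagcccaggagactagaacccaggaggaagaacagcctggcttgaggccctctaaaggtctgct

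The Isg15 window (chr4:156200769-156201068, minus strand) held 3 overlapping ISRE cores, starting 78, 72 and 66 bases before the gene's start. The windows of the neighbouring GTPase genes Igtp (chr11:58199306-58199605, plus strand) and Irgm2 (chr11:58214727-58215026, plus strand) each held a GAS core 11 bases before an ISRE core. Lined up on that ISRE core without gaps, they shared 184 of 270 bases (68.1%). The transcript counted for Irgm2 starts at chr11:58199618, inside the Igtp gene, so the printed window belongs to another start of Irgm2. The Gbp2 window (chr3:142620413-142620712, plus strand) had its ISRE core on the opposite strand. In the Stat2 window (chr10:128270248-128270547, plus strand) an opposite-strand ISRE core lay 222 bases before the start. The Bst2 window (chr8:71537423-71537722, minus strand) held a GAS core that overlaps the first of a pair of ISRE cores. The Cxcl10 window (chr5:92348840-92349139, minus strand) had an ISRE core 213 bases before the start. The Isg20 window (chr7:78913174-78913473, plus strand), the first of 3 listed for that gene, held a GAS core and no ISRE core. A match describes the letters of a window and is not evidence that a factor bound there.

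Most of the set was detected, at low to moderate levels. Over group means, 36 of the 40 members passed 1 CPM in at least 1 of the 6 groups. In the controls 34 members passed 1 CPM at day 0, 29 at day 2 and 26 at day 3, and in the knockouts 25, 28 and 23. Of all genes tested, between 73.3% and 77.9% had a group mean over 1 CPM. There were 12 members above 1 CPM in every sample, and Irf7 and Ifi44 never reached it. Between 35 and 37 members passed 1 CPM with plain library totals or with the longest transcript of each gene, and 34 with the counts of all transcripts summed.

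Per length, in RPKM (CPM divided by transcript length in kilobases) averaged over the 18 samples, Bst2 led with 107.0 RPKM. Bst2 encodes tetherin, a membrane protein that holds budding virus at the cell surface. Next came Trim25, a ubiquitin ligase of the RIG-I pathway, at 26.8 RPKM, and the transcription factor Irf1 at 22.1 RPKM. Stat2 stood at 8.72 RPKM and the peptide transporter gene Tap1 at 7.51 RPKM. The viral RNA sensor Ddx58 (RIG-I) and the guanylate-binding protein Gbp2 lay side by side at 7.13 RPKM. Ifi44 was lowest at 0.0136 RPKM.

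**Figure D1:**
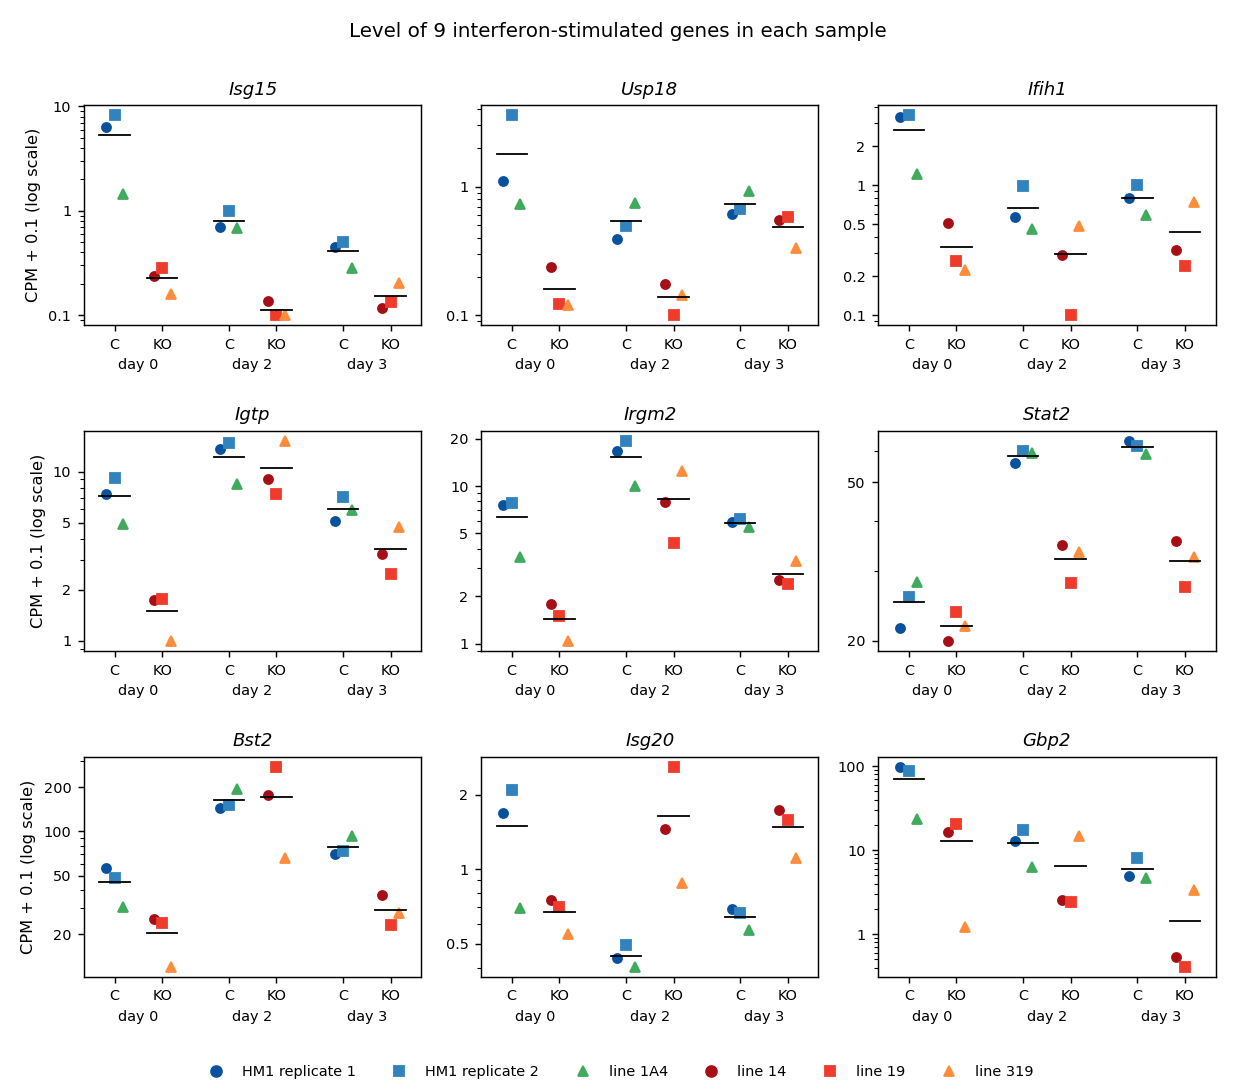
Levels of 9 interferon-stimulated genes in each sample, in CPM plus 0.1 on a log axis, by day and genotype, with a bar at each group's mean. At day 0 the knockout samples of Isg15, Igtp and Irgm2 all lie below the control samples, while for Isg20 they lie above the controls at days 2 and 3.

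Knockout and control were compared with edgeR's quasi-likelihood test, with a term for the origin of the line (HM1-derived or blastocyst-derived) and Benjamini-Hochberg adjustment over all 18279 genes tested, written below as the edgeR adjusted p. Calls are those with this p under 0.05, and log2 fold changes are given with their standard error. Of the 40 members 37 were tested, and Ifit3, Irf7 and Ifi44 fell under the filter on low counts. Counts by unadjusted p are given without the share of all genes, as are many counts with samples left out or settings changed. Such counts describe the members only and are not read as more or fewer than among other genes.

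At day 0 most members stood lower in the knockout samples. The fold change was negative for 35 of 37, with a median of -1.57 on the log2 scale against 0.01 over all genes tested. There were 6 members called lower and none called higher, against 0.853% of all genes called in either direction, 0.788% lower and 0.0656% higher. By unadjusted p under 0.05 there were 26. The count moved with the samples used: 19 members were called lower without line 319 and 12 without line 1A4, but 3 without HM1 replicate 1, 1 without HM1 replicate 2 and 2 without line 14. With the line 19 sample of day 2 left out, whose spread enters the shared fit, there were 10. All 3 knockout samples lay below all 3 controls for 20 members and above them for none, while 9.7% of all genes tested lay below and 8.06% above. Isg15 and Iigp1 are among the 6 called. Since low Isg15 and Iigp1 at day 0 helped to choose the set, nothing is read from these counts, and the tests of the other members come from that same comparison. In bulk RNA, fewer cells that carry a transcript and less of it per cell cannot be told apart.

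Isg15 encodes a small ubiquitin-like protein that is attached to other proteins. It lay at 6.32, 8.10 and 1.36 CPM in HM1 replicate 1, HM1 replicate 2 and line 1A4, and at 0.137, 0.186 and 0.0612 CPM in lines 14, 19 and 319. The groups did not overlap, and line 1A4 was the lowest control. Iigp1, an immunity-related GTPase, lay at 0.806, 1.73 and 0.638 CPM in the controls, and at 0.0232 CPM in line 19, with no count in lines 14 and 319. Usp18 encodes the protease that removes ISG15 from its targets and also dampens the type I receptor. It lay at 1.01, 3.48 and 0.638 CPM in the controls and at 0.137, 0.0232 and 0.0204 CPM in the knockouts, a log2 fold change of -4.93 ± 0.78 (edgeR adjusted p = 0.0054). Without HM1 replicate 2, the highest sample, the Usp18 p became 0.103.

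The cytosolic RNA sensor Ifih1 (MDA5) lay at 3.28, 3.34 and 1.12 CPM in the controls and at 0.411, 0.163 and 0.122 CPM in the knockouts (-3.52 ± 0.69, edgeR adjusted p = 0.021). Igtp, an immunity-related GTPase, lay at 7.28, 9.03 and 4.83 CPM against 1.65, 1.67 and 0.897 CPM (-2.34 ± 0.37, edgeR adjusted p = 0.0059). Its neighbour Irgm2 lay at 7.51, 7.74 and 3.43 CPM against 1.68, 1.39 and 0.938 CPM (-2.22 ± 0.40, edgeR adjusted p = 0.013). For these 3 genes the groups did not overlap, and the blastocyst-derived line was the lowest sample of each group. Igtp and Irgm2 share exons on the same strand in the annotation, so reads of the shared part could have been given to either. With HM1 replicate 1, HM1 replicate 2 or line 14 left out, the adjusted p of these 3 genes rose to between 0.0607 and 0.213. For Ifih1 it was also 0.0704 with all transcripts summed and 0.0743 with the fibroblast collagen level as a covariate.

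By role, the median day 0 log2 fold change was -2.36 over the 7 GTPase genes. Igtp and Irgm2 were called among them, and Iigp1 is a description only. The median was -1.57 over the 3 genes of antigen processing, with none called, and -1.19 over the 12 antiviral effectors, with none called. Over the 6 genes of ubiquitin-like conjugation it was -0.94, with Usp18 called and Isg15 a description only. The 5 nucleic acid sensors had a median of -0.69, with Ifih1 called, and the 3 transcription factors Irf1, Irf9 and Stat2 a median of -0.34, with none called. Large fold changes among members at 1 CPM or more that missed the threshold were those of Gbp3 (-3.24 ± 0.80, edgeR adjusted p = 0.082), the immunoproteasome subunit Psmb8 (-2.55 ± 0.66, edgeR adjusted p = 0.10) and the oligoadenylate synthetase-like gene Oasl2 (-2.56 ± 0.93, edgeR adjusted p = 0.28). Gbp2 shows the spread behind such values: it lay at 97.4, 86.6 and 23.6 CPM in the controls and at 16.4, 20.6 and 1.10 CPM in the knockouts. The lowest control sat just above the highest knockout, and line 319 was far below the other knockout lines.

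Members with an ISRE core in their window had a median day 0 log2 fold change of -2.24 (16 tested), those with a window and no core -0.91 (14 tested), and those without a window -1.82 (7 tested). These medians cover all tested members of each kind and were not tested against each other.

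**Figure D2:**
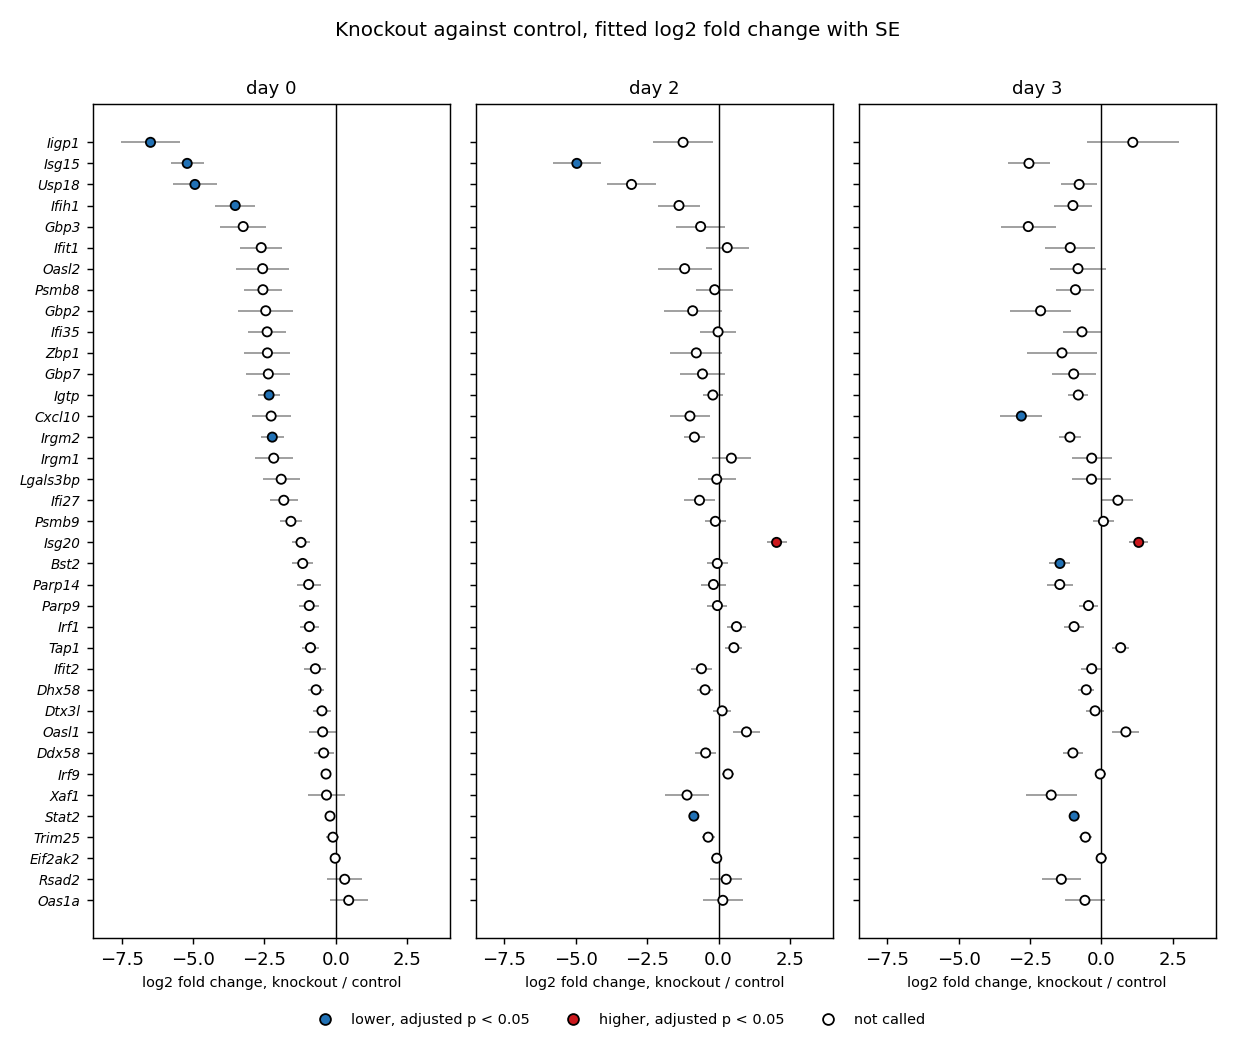
Log2 fold change of knockout against control with its standard error for each tested member at days 0, 2 and 3, filled where the edgeR adjusted p is under 0.05. At day 0 35 of 37 members lie below zero, at day 2 27 and at day 3 31.

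At day 2, after the move to serum-free medium, Isg15 and Stat2 were lower in the knockout and Isg20 was higher. These 2 lower and 1 higher calls among 37 members stood against 1.6% of all genes called, 0.963% lower and 0.635% higher. By unadjusted p under 0.05 there were 5. Without line 319 there were 12 lower and 1 higher, and without HM1 replicate 1 or HM1 replicate 2 none. The median log2 fold change was -0.20, against 0.02 over all genes, and 27 of 37 values were negative. The knockout samples lay below all controls for 5 members and above them for 4, against 11.7% and 9.93% of all genes tested.

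Isg15 lay at 0.607, 0.906 and 0.586 CPM in the day 2 controls and at 0.0380 CPM in line 14, with no count in lines 19 and 319. The 3 knockout samples held 2 counts together and the controls 95, a ratio of 32.7 relative to total gene counts with a 95% exact interval of 8.8 to 273.9 that covers counting error only (edgeR adjusted p = 0.0090). Stat2, a transcription factor of the ISRE-binding complex, lay at 55.8, 60.0 and 59.2 CPM in the controls and at 34.8, 27.9 and 33.3 CPM in the knockouts (-0.86 ± 0.14, edgeR adjusted p = 0.0090). Its 3 controls were tightly grouped, and every knockout line was lower. Isg20, an exonuclease that degrades single-stranded RNA, lay at 0.337, 0.395 and 0.303 CPM in the controls and at 1.35, 2.49 and 0.778 CPM in the knockouts (2.03 ± 0.35, edgeR adjusted p = 0.010). All 3 knockout lines were above all 3 controls, though both groups were low.

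These 3 day 2 calls rested on the HM1 controls. Without HM1 replicate 1 the edgeR adjusted p was 0.0613 for Isg15, 0.115 for Stat2 and 0.179 for Isg20, and without HM1 replicate 2 it was 0.0909, 0.17 and 0.146. With the day 2 samples fitted alone the p-values were 0.228, 0.383 and 0.353. With the HM1-derived lines alone it was 0.0576 for Stat2. Members at 1 CPM or more with the largest fold changes short of the threshold were Oasl2 (-1.19 ± 0.94, edgeR adjusted p = 0.50), the XIAP-associated factor Xaf1 (-1.10 ± 0.76, edgeR adjusted p = 0.43) and the chemokine Cxcl10 (-1.0 ± 0.69, edgeR adjusted p = 0.43).

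At day 3, after retinoic acid, Stat2, Bst2 and Cxcl10 were lower in the knockout and Isg20 was higher. These 3 lower and 1 higher calls compare with 5.18% of all genes, 2.44% lower and 2.74% higher. By unadjusted p under 0.05 there were 13. Without line 319 there were 21 lower and 1 higher, without line 14 there was 1, without line 19 there were 2, and without either HM1 replicate none. With the line 19 sample of day 2 left out there were 8 calls. The median log2 fold change was -0.81, against 0.02 over all genes, with 31 of 37 negative. The knockout samples lay below all controls for 17 members and above them for 2, while 17.6% of all genes tested lay each way.

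Stat2 lay at 63.4, 61.5 and 59.0 CPM in the day 3 controls and at 35.5, 27.2 and 32.4 CPM in the knockouts (-0.95 ± 0.14, edgeR adjusted p = 0.0032). As at day 2, neither group spread far and they did not overlap. Bst2 lay at 69.9, 73.2 and 92.5 CPM against 37.1, 23.2 and 28.0 CPM (-1.45 ± 0.37, edgeR adjusted p = 0.036). Bst2 is on chromosome 8, of which line 319 has an extra copy, and in CPM that line was between the other knockout lines. Against the control of the same origin, with 0.1 CPM added, its log2 difference was -1.72, with -0.95 and -1.62 in lines 14 and 19. At day 2 these Bst2 differences were -1.56 in line 319 and 0.25 and 0.89 in lines 14 and 19. Cxcl10, which draws in T cells, lay at 1.16, 2.30 and 1.51 CPM against 0.165, 0.137 and 0.388 CPM (-2.80 ± 0.73, edgeR adjusted p = 0.039). Its counts come from a transcript annotated with a retained intron, and the groups did not overlap. Isg20 lay at 0.592, 0.568 and 0.468 CPM in the controls and at 1.64, 1.48 and 1.01 CPM in the knockouts (1.31 ± 0.33, edgeR adjusted p = 0.036).

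Leaving out 1 series of samples also ended day 3 calls. Without HM1 replicate 1 or HM1 replicate 2 the edgeR adjusted p was 0.0666 and 0.0722 for Stat2, 0.12 and 0.147 for Bst2, 0.141 and 0.203 for Cxcl10, and 0.223 and 0.237 for Isg20. Without line 1A4 it was 0.188 for Bst2, 0.0581 for Cxcl10 and 0.0538 for Isg20. Without line 14 it was 0.101, 0.177 and 0.102 for the same genes, and without line 19 0.0601 for Bst2 and 0.0521 for Cxcl10. Without the origin term it was 0.0628 for Bst2 and 0.103 for Isg20, and with the collagen covariate 0.0845 for Cxcl10 and 0.0707 for Isg20. The largest fold changes short of the threshold at 1 CPM or more were those of Gbp3 (-2.56 ± 0.96, edgeR adjusted p = 0.13), Gbp2 (-2.13 ± 1.06, edgeR adjusted p = 0.26) and the ADP-ribosyltransferase Parp14 (-1.45 ± 0.45, edgeR adjusted p = 0.072). The 3 days use separate control samples of the same lines, which were fitted together.

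The knockout lines did not move alike. Against the control of the same origin, on a log2 scale with 0.1 CPM added, 25 of the 37 tested members were at least 2-fold lower in line 14 at day 0, 23 in line 19 and 19 in line 319. Over all genes tested these shares were 5.96%, 6.34% and 5.09%. The day 0 counts include Isg15 and Iigp1 and are a description. At least 2-fold higher at day 0 were 3 members, Oas1a, Rsad2 and Xaf1, all in line 319, where 8.76% of all genes were. None were in lines 14 and 19, where the shares of all genes were 0.996% and 1.23%. At day 2, 15 members were at least 2-fold lower in line 14 and 21 in line 19, against 3.7% and 17.8% of all genes, with 1 higher in each, against 1.72% and 14.2%. In line 319 3 were lower and 16 higher, against 6.75% and 8.12% of all genes. Over the members the median was 0.89 in line 319, -0.72 in line 14 and -1.11 in line 19. At day 3, 17, 23 and 5 members were at least 2-fold lower in lines 14, 19 and 319, against 4.5%, 10.5% and 4.63% of all genes, and 1, 2 and 1 were higher, against 3.92%, 5.62% and 9.15%. Line 1A4 also differed from the HM1 mean, with 18 members at least 2-fold lower at day 0, 11 at day 2 and 3 at day 3, against 4.9%, 2.39% and 1.59% of all genes.

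**Figure D3:**
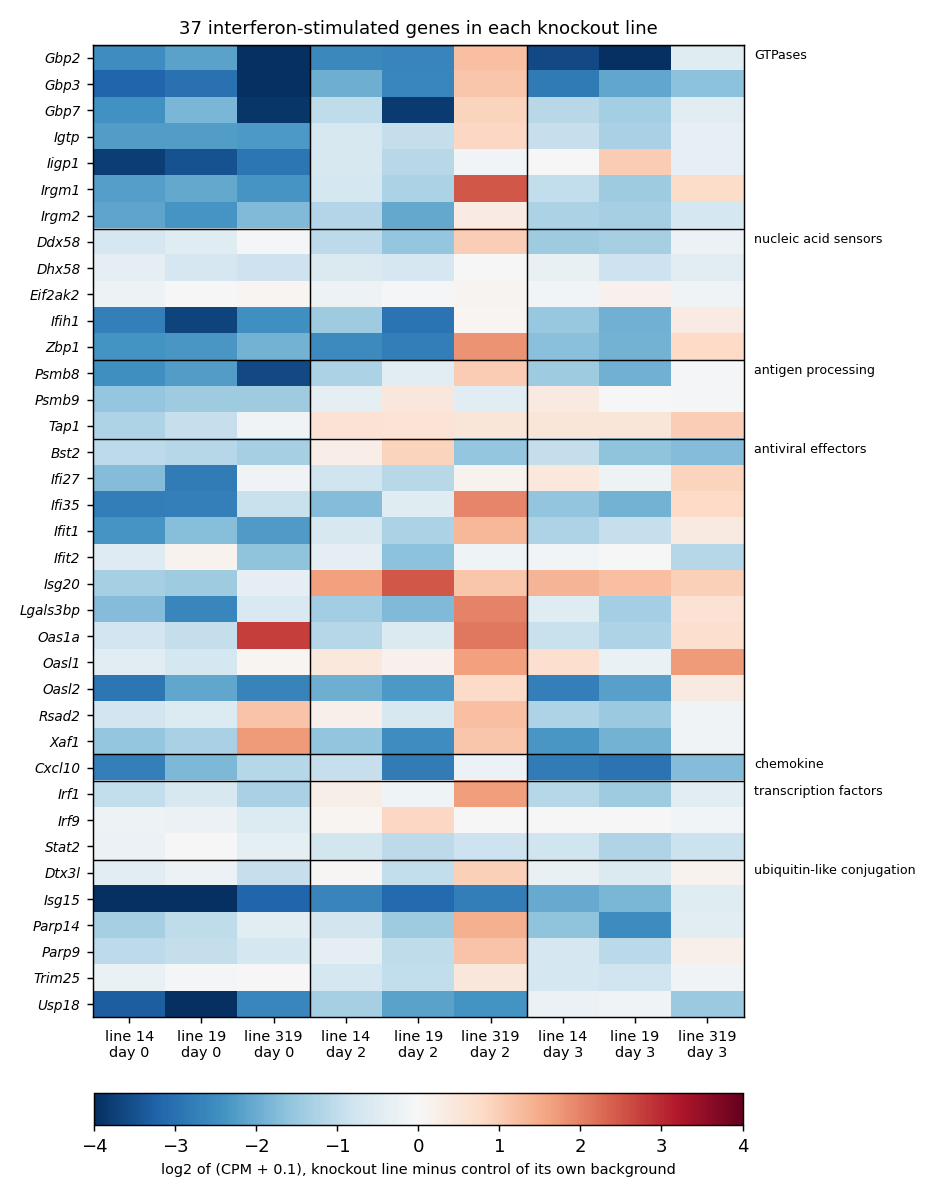
Heat map of the log2 difference (0.1 CPM added) between each knockout line and the control of the same origin, for each tested member and day, grouped by role, with colours cut at 4 either way. Blue is lower and red higher than the control: lines 14 and 19 are mostly blue on all 3 days, and line 319 has 16 members at least 2-fold higher at day 2.

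The members that were higher in line 319 at day 2 included GTPases and nucleic acid sensors. Irgm1, an immunity-related GTPase, lay at 4.85 CPM in line 1A4 and 27.7 CPM in line 319, while HM1 had 11.3 and 13.1 CPM and lines 14 and 19 had 7.43 and 4.98 CPM. Zbp1, a sensor of Z-form nucleic acid, lay at 0.364 and 1.51 CPM in lines 1A4 and 319, against 1.17 and 2.05 CPM in HM1 and 0.190 and 0.151 CPM in lines 14 and 19. The direction of the difference was thus opposite in the 2 origins for both genes, with 1 blastocyst-derived sample per genotype. Ddx58 was arranged in the same way, at 16.9 and 33.6 CPM in lines 1A4 and 319, with 23.1 and 28.6 CPM in HM1 and 12.5 and 8.82 CPM in lines 14 and 19.

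With line 319 left out, line 1A4 was the only blastocyst-derived series and alone set the origin term. The difference then rested mainly on HM1 against lines 14 and 19. In that fit members were called lower at every day. There were 19 of 38 tested at day 0 against 1.96% of all genes, 12 at day 2 against 2.96%, and 21 at day 3 against 5.92%. The day 0 count includes Isg15 and Iigp1, whose day 0 values helped to choose the set, and nothing is read from it. At day 3, Gbp2 was then lower by a log2 fold change of -4.32 ± 0.42 (edgeR adjusted p = 2.8e-04), with 0.430 and 0.309 CPM in lines 14 and 19 and 4.82 and 8.05 CPM in HM1. Line 319 had 3.21 CPM and line 1A4 4.53 CPM, values close to HM1 replicate 1. Zbp1 (-4.27 ± 0.71, edgeR adjusted p = 0.0043), Oasl2 (-3.84 ± 0.75, edgeR adjusted p = 0.0085) and Isg15 (-3.95 ± 0.82, edgeR adjusted p = 0.012) were lower too. With all lines the Isg15 value at day 3 was -2.53 (edgeR adjusted p = 0.054). Irf1, a transcription factor induced by both interferon types, was lower at day 3 by -1.38 ± 0.25 (edgeR adjusted p = 0.0063). At day 2, Zbp1 (-3.06 ± 0.40, edgeR adjusted p = 0.0028), Gbp2 (-2.64 ± 0.36, edgeR adjusted p = 0.0031) and Ddx58 (-1.16 ± 0.20, edgeR adjusted p = 0.012) were among the 12. These genes were named after their values were seen. Line 319 was left out as 1 of 6 series in turn, and the counts with all lines stand above. With the HM1-derived lines alone 18, 8 and 19 members were called at days 0, 2 and 3.

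Whether the knockout difference varied with origin was not tested, since each blastocyst-derived combination of genotype and day is 1 sample. The origin term itself, over both genotypes, called no member, against 4.15% of all genes, and 3 members by unadjusted p under 0.05. Origin, the Nup133 allele, the sex chromosomes and the extra chromosomes of line 319 cannot be told apart here. The extra chromosomes 8 and 12 carry 3 members, Bst2, Rsad2 and Ifi27.

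Between the days, the set fell in the controls more often than it rose. From day 0 to day 2, 18 of 37 members were lower and 6 higher in the controls, against 35.2% of all genes called, 15.5% lower and 19.7% higher. Without HM1 replicate 1 there were 8 calls in all, and without HM1 replicate 2 13. The median log2 change was -1.22, against 0.01 over all genes. Xaf1, a pro-apoptotic effector, dropped from 24.2 ± 10.3 to 1.34 ± 0.88 CPM (SD, n = 3), a log2 change of -4.17 ± 0.71 (edgeR adjusted p = 3.6e-04). Gbp3 (-3.45 ± 0.81, edgeR adjusted p = 0.0038), Irgm1 (-2.34 ± 0.67, edgeR adjusted p = 0.013) and Ifih1 (-2.16 ± 0.62, edgeR adjusted p = 0.014) fell too. Isg15 went from 5.26 ± 3.49 to 0.700 ± 0.179 CPM (SD, n = 3) and Iigp1 from 1.06 ± 0.59 to 0.111 ± 0.071 CPM, with log2 changes of -2.70 and -3.20. Their changes use the day 0 controls that helped to choose the set and are a description. All 6 genes of ubiquitin-like conjugation, Isg15 among them, and 4 of the 5 sensors were called lower at this step. Isg15 is left aside here, since its day 0 control values helped to choose the set. Of the others only Trim25 kept the call in each of 16 refits with other settings or samples. The call was lost in 11 of the refits for Eif2ak2, 7 for Zbp1, 4 for Dtx3l, 3 each for Usp18, Parp9 and Ifih1, and 2 each for Ddx58 and Parp14.

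The members that rose in the controls from day 0 to day 2 were led by Bst2, which went from 45.2 ± 13.4 to 163 ± 26.7 CPM (SD, n = 3; 1.92 ± 0.38, edgeR adjusted p = 0.0011). Rsad2 (viperin), which makes a chain-terminating nucleotide, rose by 1.76 ± 0.59 on the log2 scale (edgeR adjusted p = 0.029), read from its nonsense-mediated decay transcript, and Ifit2, an RNA-binding inhibitor of translation, by 1.50 ± 0.38 (edgeR adjusted p = 0.0062). Irgm2 rose by 1.29 ± 0.37 (edgeR adjusted p = 0.014), Stat2 by 1.22 ± 0.15 (edgeR adjusted p = 2.0e-05) and Tap1 by 1.15 ± 0.30 (edgeR adjusted p = 0.0080). Of the genes named for this step with a test, Xaf1, Bst2 and Stat2 were called in each of 16 refits with other settings or samples.

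The calls of the other genes named with a test were lost without single control series or with the fibroblast collagen level as a covariate. With HM1 replicate 1 left out the edgeR adjusted p rose to 0.0731 for Gbp3, 0.108 for Irgm1, 0.179 for Ifih1, 0.163 for Rsad2, 0.102 for Ifit2, 0.0909 for Irgm2 and 0.055 for Tap1. With HM1 replicate 2 left out it was 0.0791 for Irgm1, 0.0728 for Ifih1, 0.22 for Rsad2, 0.0983 for Ifit2 and 0.0991 for Irgm2, and without line 1A4 it was 0.0708 for Tap1. With the covariate it was 0.0618 for Gbp3, 0.151 for Irgm1, 0.407 for Ifih1, 0.0743 for Ifit2 and 0.132 for Tap1. In that fit 9 members in all were called at this step, against 24 without the covariate. The collagen sum itself fell at this step, from 116.3, 106.6 and 72.8 CPM to 43.85, 58.1 and 37.9 CPM in the controls. The covariate thus overlaps with the step, and fibroblast content and day cannot be told apart in the lost calls.

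From day 2 to day 3 the controls had 5 members lower and none higher, against 21.4% of all genes called, 8.92% lower and 12.5% higher, with a median of -0.58. They were Rsad2 (-1.80, edgeR adjusted p = 0.040), Irgm2 (-1.38, 0.015), Bst2 (-1.06, 0.0498), Trim25 (-1.03, 0.0047) and Igtp (-1.03, 0.047). Without HM1 replicate 1 none of these calls remained, with adjusted p-values of 0.0725 for Trim25 and 0.152 to 0.346 for the others. Without HM1 replicate 2 they were 0.16 for Rsad2, 0.178 for Irgm2, 0.234 for Bst2 and 0.228 for Igtp. Line 1A4 also decided Rsad2 (0.0675 without it), Bst2 (0.0807) and Igtp (0.0547), and line 14 Rsad2 (0.0561), Bst2 (0.0892) and Igtp (0.0822). The number of calls ran from 0 without HM1 replicate 1 to 17 without line 319, and it was 1, 3, 2 and 9 with HM1 replicate 2, line 1A4, line 14 or line 19 left out. With the collagen covariate the values were 0.608 for Bst2, 0.214 for Igtp, 0.0696 for Irgm2 and 0.0518 for Trim25.

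In the knockouts the step from day 0 to day 2 had 5 members lower and 10 higher, against 35.9% of all genes called, 15.1% lower and 20.8% higher, with a median of 0.29 against 0.06 over all genes. Without line 14 there were 8 calls in all. Bst2 rose from 20.4 ± 7.4 to 172 ± 104 CPM (SD, n = 3), a log2 change of 3.04 (edgeR adjusted p = 3.4e-05). Igtp rose by 2.92 and Irgm2 by 2.67 on the log2 scale, from the low day 0 levels given above. Tap1 rose by 2.57 and Psmb9, an immunoproteasome subunit encoded beside it, by 2.42. Rsad2 rose by 1.71, but its edgeR adjusted p was 0.237 without line 14, 0.0922 without line 19 and 0.072 without HM1 replicate 1. The members that fell were Xaf1 (-4.95, edgeR adjusted p = 1.7e-04), Trim25 (-1.43, 2.4e-04), Ddx58 (-1.37, 0.0078), the double-stranded RNA-activated kinase Eif2ak2 (-0.59, 0.029) and Irf9 (-0.54, 0.039). The calls of Ddx58, Eif2ak2 and Irf9 were weak: without line 14 the edgeR adjusted p was 0.0799, 0.0726 and 0.246. Ddx58 was at 0.0607 without line 19, and Eif2ak2 and Irf9 were at 0.0987 and 0.136 without line 319, 0.064 and 0.0778 without HM1 replicate 1, and 0.0604 and 0.0931 without HM1 replicate 2. Bst2, Igtp, Irgm2, Tap1, Psmb9, Xaf1 and Trim25 were called in each of the 16 refits.

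From day 2 to day 3 the knockouts had 11 members lower and 3 higher, against 33.6% of all genes called, 16% lower and 17.7% higher, with a median of -1.16. Without line 14 there were 8 calls in all. Rsad2 fell by 3.46 on the log2 scale (edgeR adjusted p = 0.0011), Bst2 by 2.46 (2.4e-04), Irf1 by 2.42 (1.5e-04) and Parp14 by 1.83 (0.0064), each called in all 16 refits. Irgm1 fell by 2.61 (0.010) and Ifi35, which binds the interferon-induced protein NMI, by 1.94 (0.036). Tap1 rose by 0.82 (edgeR adjusted p = 0.042), Eif2ak2 by 0.53 (edgeR adjusted p = 0.048) and Usp18 by 2.78 (edgeR adjusted p = 0.024), the last at under 1 CPM throughout and named after its values were seen. The Ifi35 call was lost without HM1 replicate 1 (0.069), HM1 replicate 2 (0.0596), line 14 (0.0702) or line 19 (0.145), and the Irgm1 call with the collagen covariate (0.0693). The Tap1 rise was lost in 8 of the 16 refits and the Eif2ak2 rise in 13, among them those that left out any of 5 series, with values of 0.0583 to 0.119 for Tap1 and 0.0547 to 0.244 for Eif2ak2, and the Usp18 rise without line 14 (0.0854), line 19 (0.106) or line 319 (0.0512).

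Isg20 was the 1 member whose change over time differed between genotypes by the test of that difference, 1 of 37 at each step against 0.0219% of all genes called in that direction for day 0 to day 2 and 0.394% for day 0 to day 3. By unadjusted p under 0.05 there were 16 and 10 members. From day 0 to day 2 it went from 1.39 ± 0.72 to 0.345 ± 0.047 CPM in the controls and from 0.568 ± 0.107 to 1.54 ± 0.87 CPM in the knockouts (SD, n = 3). The difference between these changes was 3.25 ± 0.48 on the log2 scale (edgeR adjusted p = 0.032). For day 0 to day 3 it was 2.53 ± 0.47 (edgeR adjusted p = 0.026). These calls rested on few samples: without HM1 replicate 1 the adjusted p was 0.679 at day 2 and 0.367 at day 3, without HM1 replicate 2 0.726 and 0.473, and without line 14 0.221 and 0.139. At day 2 it was also 0.0526 without line 1A4, 0.128 without line 19, 0.0619 with the collagen covariate and 0.0853 in the HM1-derived lines alone. Without the origin term it was 0.146 at day 2 and 0.0914 at day 3. With each series of samples as a replicate block, which follows each line over the days, the values were 0.102 and 0.0503.

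Some members that lie next to each other moved in opposite directions. With gaps of at most 100000 bases, 16 of the 40 members fell into 6 groups of neighbours. On chromosome 17 Psmb9, Tap1 and Psmb8 encode parts of the immunoproteasome and the peptide transporter. In the controls from day 0 to day 2 Tap1 went from 8.03 ± 3.43 to 18.2 ± 4.0 CPM and Psmb9 from 3.07 ± 1.49 to 5.74 ± 0.19 CPM, while Psmb8 went from 15.2 ± 8.8 to 4.26 ± 2.15 CPM (SD, n = 3). By edgeR adjusted p Tap1 was higher (0.0080), Psmb8 lower (0.040) and Psmb9 not called (0.056), and Psmb8 missed the threshold when any of the control series was left out, at 0.0927 to 0.287, and without line 14, at 0.0541. Tap1 and Psmb9 start on opposite strands with overlapping windows, and neither window held an ISRE or GAS core. On chromosome 19 Ifit2 went from 3.28 ± 1.56 to 9.06 ± 0.17 CPM at that step and its neighbour Ifit1 from 0.975 ± 0.411 to 0.315 ± 0.052 CPM (edgeR adjusted p = 0.0062 and 0.076), and Ifit3 was under the filter. On chromosome 3 the log2 changes of Gbp7, Gbp3 and Gbp2 were -1.62, -3.45 and -2.51 (edgeR adjusted p = 0.11, 0.0038 and 0.055).

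**Figure D4:**
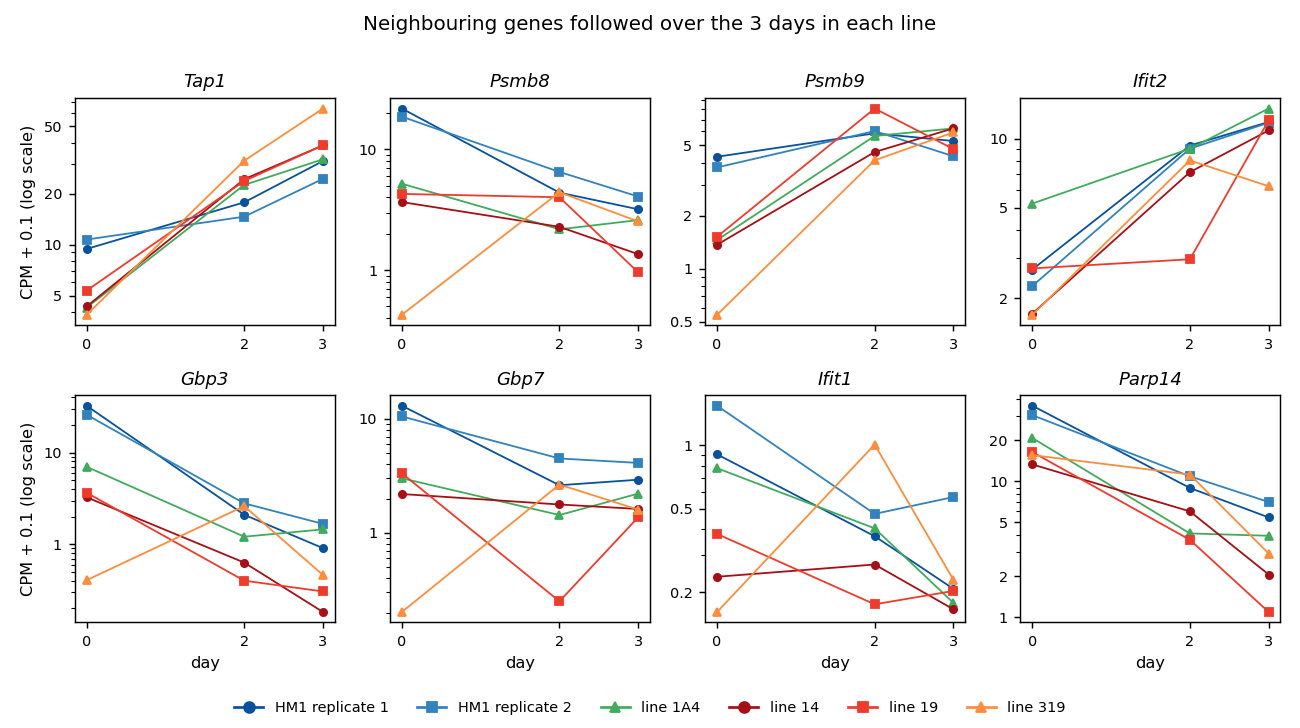
Levels in CPM plus 0.1 on a log axis for 8 members that lie beside other members, by day, in each control and knockout sample. From day 0 to day 2 the control means of Tap1, Psmb9 and Ifit2 go up, to 18.2, 5.74 and 9.06 CPM, while those of Psmb8 and Ifit1 go down, to 4.26 and 0.315 CPM.

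Of the pathway upstream of the set, interferon itself was nearly absent from the counts. Of 12 interferon genes, 5 had no count in any sample and none had more than 1 count in a sample. The limit that a count of 0 allows is 3 counts. On plain library totals, rather than the scaled totals behind the other CPM values, that equals 0.0551 to 0.182 CPM. The receptors were present, with the type I receptor subunit Ifnar1 at 49.7 to 87.9 CPM, and none of the 6 receptor genes tested was called between genotypes on any day. Among 18 signalling genes outside the set, none was called on any day. Of 13 negative regulators, Socs3, which blocks JAK kinases, was lower in the knockout at day 3, at 19.7 CPM in the controls and 6.64 CPM in the knockouts (-1.56 ± 0.25, edgeR adjusted p = 0.0043).

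A separate list of 40 other interferon-stimulated genes had 30 tested, with median log2 fold changes of -0.96, -0.14 and -0.36 at days 0, 2 and 3, against 0.01, 0.02 and 0.02 over all genes. It had 2, 1 and 3 calls, where 0.853%, 1.6% and 5.18% of all genes were called. Called lower at day 0 were the antiviral GTPase Mx2 (-3.08, edgeR adjusted p = 0.029) and Trim30a (-3.82, edgeR adjusted p = 0.0084). At day 2 Ifitm3, which blocks viral fusion with membranes, was the 1 gene called, and it was higher (1.40, edgeR adjusted p = 6.8e-04). At day 3 Mx2 (-2.33, edgeR adjusted p = 0.045) and Oas3 (-1.48, edgeR adjusted p = 0.0083) were lower and Ifitm3 higher (0.76, edgeR adjusted p = 0.016). Of 14 genes of MHC class I and its loading, H2-T22 was lower at day 0 (-1.37, edgeR adjusted p = 0.0082), and Tapbp (-1.08, edgeR adjusted p = 0.031) and H2-K1 (-1.07, edgeR adjusted p = 0.021) were lower at day 3. The medians of these 14 genes were -0.82, 0.14 and -0.29. The calls outside the set were not refitted with other settings or with samples left out.

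Transcripts of fibroblasts, the cell type of the feeders, were measured beside the set. The summed level of Col1a1 and Col1a2 at day 0 was 116.3, 106.6 and 72.8 CPM in HM1 replicate 1, HM1 replicate 2 and line 1A4, and 86.9, 48.6 and 105.6 CPM in lines 14, 19 and 319. The groups overlapped, and line 319 had a collagen level near that of HM1. At day 0 that line had the highest Xaf1 (48.3 CPM), Oas1a (26.5 CPM) and Rsad2 (1.35 CPM). Its Isg15 was the lowest at day 0, but on 3 counts, with 4 and 8 counts in lines 14 and 19. These genes were named after their values were seen. Across the 6 samples of a day, the median Pearson r between a member and this collagen sum for days 0, 2 and 3 was 0.34, 0.57 and 0.49, against 0.02, 0.05 and -0.00 over all genes tested. Among the members r at day 0 reached 0.78 for Ifi27, 0.67 for Lgals3bp and Xaf1 and 0.60 for Ifi35, and was 0.06 for Gbp2 and 0.13 for Psmb8. The median Spearman rho over the members was 0.43, 0.54 and 0.54. The correlation was above 0 for 34, 32 and 31 of the 37 members, and above 0.8 for 0, 2 and 2, where 2.53%, 5.22% and 5.92% of all genes passed 0.8. These values describe 6 samples a day that share lines and genotypes. In the same order, the day 2 sum was 43.85, 58.1 and 37.9 CPM in controls and 50.6, 28.3 and 42.8 CPM in knockouts. At day 3 it was 99.6, 144.5 and 123.8 CPM against 115.5, 71.8 and 75.2 CPM. The sum thus rose from day 2 to day 3 in every series, though feeders were removed before day 0. How much of it came from feeders or from the cells themselves was not tested. As a covariate it overlaps with the steps between days.

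**Figure D5:**
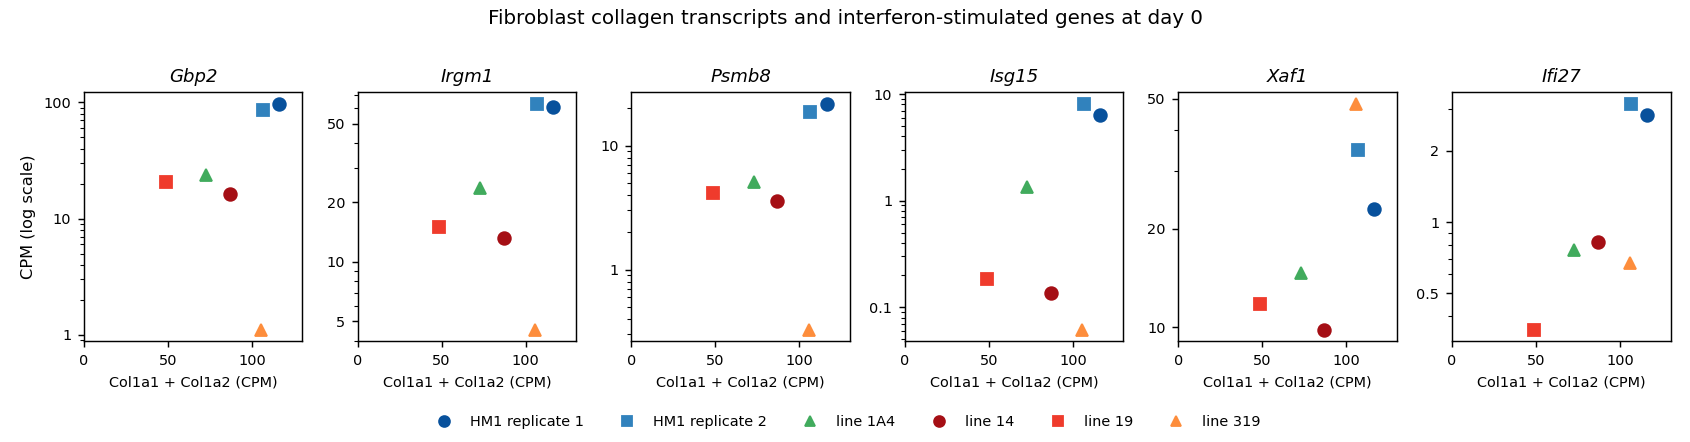
Day 0 levels of 6 members, chosen after their values were seen, against the summed level of the fibroblast collagens Col1a1 and Col1a2 in the 6 day 0 samples, both in CPM, with the member on a log axis. Line 319, with a collagen sum of 105.6 CPM, has the lowest Gbp2, Irgm1 and Psmb8 and the highest Xaf1. Its Ifi27 level of 0.673 CPM is between lines 14 and 19. Its Isg15 is the lowest too, but on 3 counts, with 4 and 8 counts in lines 14 and 19.

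A wider list of 14 fibroblast markers, none of them at 0 in any group, summed to 242.5 to 533.1 CPM in the day 0 controls and 188.4 to 308.9 CPM in the day 0 knockouts. At day 2 the ranges were 229.6 to 304.1 and 136.4 to 191.9 CPM, and at day 3 373.4 to 483.6 and 219.6 to 349.6 CPM, so the groups did not overlap at days 2 and 3. Of 13 markers tested, none was called at day 0, and Postn, Tagln and Acta2 were lower in the knockout at days 2 and 3. The markers did not all go that way. Col6a1 (0.71 and 0.89 on the log2 scale), Col6a2 (0.45 and 0.87), Col3a1 (0.42 and 1.09) and Dcn (0.67 and 0.27) were higher at days 2 and 3 without a call. The median log2 fold change over the 13 markers was -0.41 at day 2 and -0.40 at day 3. With the collagen sum as a covariate, 5 members were called lower at day 0, 2 lower and 1 higher at day 2, and 2 lower at day 3. In that fit 0.607% of all genes were called lower at day 0, 0.695% lower and 0.416% higher at day 2, and 1.43% lower at day 3. The part of feeder or fibroblast-like cells in the members' levels was not tested beyond this covariate. A list of 7 leukocyte and macrophage markers summed to 13.1 to 20.4 CPM in the day 0 controls and 9.26 to 18.1 CPM in the day 0 knockouts. At day 2 the ranges were 12.2 to 14.6 and 8.50 to 16.6 CPM. At day 3 they were 8.41 to 9.22 and 3.95 to 7.86 CPM, with no overlap. Of 4 markers tested none was called at days 0 and 2, and the macrophage lysosomal marker Cd68 was lower at day 3 (-1.16 ± 0.29, edgeR adjusted p = 0.033). Ptprc was at or below 0.173 CPM in every sample and at 0 in the day 2 controls, and Adgre1 was at 0 in the day 3 controls and the day 0 knockouts. The part of these cells in the members' levels was not tested.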

How the data were processed

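Polyadenylated RNA was sequenced as strand-specific libraries, per the labels' protocols. The authors deposited read counts per Ensembl transcript in 72 tables, 4 technical files for each of 18 samples. The submitters' processing notes list bcl2fastq 2.17.1.14, STAR 2.4.0k, SAMtools, HTSeq and the build mm10. Which annotation release was counted, and whether by strand, is not given in the sources used here. Reads shared by overlapping transcripts may be split or lost.

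Technical files agreed within sampling noise (chi-square per degree of freedom 1.01 to 1.03) and were summed. Transcripts were matched to GENCODE M21 names (108309 of 110379), with 1 transcript per gene. Unmatched transcripts held 1.43% to 2.46% of counts. CPM use TMM-scaled totals. Tests used edgeR 4.0.16 (quasi-likelihood, robust, TMM, filterByExpr) over 6 groups and an origin term, with 11 residual degrees of freedom and a biological coefficient of variation of 0.246. RPKM use the transcript's length. R was 4.3.3, with DESeq2 1.42.0 and limma 3.58.1, and Python 3.11.15. The scripts were tested on simulated data.

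Same-numbered samples are the same line followed over the days. Deviations of same-series samples correlated above 0.1 in 17 of 18 pairs (-0.112 to 0.555). The members and lists were chosen with earlier results of these data known. Named genes were those called, up to 6 a direction by fold change at 1 CPM or more, and for the genotype comparisons the 3 largest not called. Alternatives were other scaling, filters, transcripts, samples, covariates and a replicate block.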

Additional observations from a re-analysis of the deposited data

Results flagged for a closer look

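The change of Isg20 over time differed between knockout and control by an interaction term: 3.25 on the log2 scale from day 0 to day 2 (edgeR adjusted p = 0.032) and 2.53 from day 0 to day 3 (edgeR adjusted p = 0.026). With the replicate block the adjusted p was 0.102 and 0.0503, and the call was lost in 9 and 5 of 16 refits.

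For 5 members line 319 differed from line 1A4 by at least 2-fold, on a log2 scale with 0.1 CPM added. For these, lines 14 and 19 each differed from HM1 by at least 2-fold the opposite way on the same day. Other members were opposite without reaching 2-fold in both of those lines. Irgm1 at day 2, for example, was at 2.49 in line 319 and at -0.71 and -1.28 in lines 14 and 19. With 1 blastocyst-derived sample per genotype and day, this difference between origins was not tested. How many of all genes showed the opposite pattern was not counted. The 5 members therefore describe the set only and are not read as more or fewer than among other genes. At day 0 Xaf1 was 1.71 higher in line 319, with differences of -1.55 and -1.30 in lines 14 and 19. Xaf1 lay at 48.3 CPM in line 319 and 14.6 CPM in line 1A4, and at 9.81 and 11.7 CPM in lines 14 and 19 against 23 and 34.9 CPM in HM1.

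At day 2 the value in line 319 was 2.00 for Lgals3bp, 1.80 for Zbp1, 1.20 for Gbp2, 1.11 for Xaf1 and 1.11 for Gbp3, and those in lines 14 and 19 ran from -2.77 to -1.39. Gbp2 lay at 14.4 CPM in line 319 and 6.22 CPM in line 1A4, and at 2.45 and 2.34 CPM in lines 14 and 19 against 12.9 and 17.5 CPM in HM1.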

How the results depend on the processing

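Over all refits of single members, 962 kept their direction and side of the threshold, 206 kept the direction and missed it, and none reversed. Counts of called members moved by more than 1.5 times as follows. At day 0 (6 called) DESeq2 gave 14, leaving out line 19 at day 2 gave 10, the HM1-derived lines alone 18 and each day fitted alone 16. At day 2 (3 called) the HM1-derived lines gave 8 and the day alone 0. At day 3 (4 called) DESeq2 gave 7, line 19 at day 2 left out 8, the collagen covariate 2, no origin term 2, the HM1-derived lines 19 and the day alone 11. For the control step from day 0 to day 2 (24 called) the collagen covariate gave 9. For the control step from day 2 to day 3 (5 called) DESeq2 gave 8, line 19 at day 2 left out 8, the covariate 2, the HM1-derived lines 15 and the replicate block 8. For the knockout step from day 2 to day 3 (14 called) the covariate gave 9. For the changed difference at day 2 (1 called) DESeq2 gave 2, and the covariate, no origin term, the HM1-derived lines and the replicate block 0. At day 3 (1 called) DESeq2 gave 5, line 19 at day 2 left out 2, no origin term 0, the HM1-derived lines 2 and the replicate block 0. For origin (0 called by edgeR, 3 by unadjusted p) DESeq2 gave 2, and no filter, line 19 at day 2 left out and the covariate 1. The cause of these shifts was not tested. Leaving out 1 series gave 1 to 19 at day 0, 0 to 13 at day 2 and 0 to 22 at day 3, in each case with the most calls without line 319. For the control steps it gave 8 to 32 and 0 to 17, and for the knockout steps 8 to 20 and 8 to 18. For the changed difference it gave 0 to 1 at day 2 and 0 to 3 at day 3, and for origin 0 to 5. Counts are low, and genotype differences within a day cannot be fitted with the replicate block.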
